A study of Mus musculus with 2 samples.

Results

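Il1a, Il1b, Il1rn, Il18, Il6, Tnf, Osm, Nlrp3 and Ptgs2 are the inflammatory cytokine genes followed here, drawn from the IL-1, TNF and IL-6 families together with an inflammasome sensor (Nlrp3) and the inducible cyclooxygenase (Ptgs2). They were chosen by name, and all 9 of 9 were found among the 32287 features of both single-cell matrices. The matrices come from the hearts of p16-2A-CreER;R26-mTmG mice, in which tamoxifen lets a Cre recombinase made from the p16 locus switch a membrane reporter to GFP. The mice had myocardial infarction (MI) surgery, received tamoxifen by gavage on day 5 and were killed on day 7. Non-cardiomyocytes of the infarcted region were sorted into GFPhi cells and GFPlo cells, and 1 droplet library with 3′ UMI (unique molecular identifier) counts was made of each. Both groups share the infarct, the alleles and the tamoxifen. There is no uninjured heart, no untreated control and no second library of either kind, and the labels do not say how many mice were pooled, so no test over animals could be made. Every interval given is an exact 95% interval that covers counting error only.

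IL-1α and IL-1β signal through the receptor encoded by Il1r1, and IL-1 receptor antagonist occupies that receptor without signalling. IL-1β and IL-18 are made as inactive precursors that caspase-1 cleaves once an inflammasome such as NLRP3 assembles, so their transcripts do not show how much active cytokine is released. TNF, IL-6 and oncostatin M act on their own receptors, IL-6 and oncostatin M through the shared gp130 chain, and COX-2 supplies the precursor of the prostaglandins. In the infarcted heart neutrophils and monocytes arrive early, macrophages clear debris, and fibroblasts and mesothelial cells of the epicardium respond to these signals.

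On mm10, Il1b (ENSMUSG00000027398) lies on chromosome 2 at 129364570 to 129371139, and Il1a (ENSMUSG00000027399) lies on the same strand at 129299610 to 129309972. Il1rn (ENSMUSG00000026981) is on the opposite strand of chromosome 2 at 24336853 to 24351494. Tnf (ENSMUSG00000024401) is on chromosome 17 at 35199381 to 35202007, Il6 (ENSMUSG00000025746) on chromosome 5 at 30013114 to 30019981 and Ptgs2 (ENSMUSG00000032487) on chromosome 1 at 150100031 to 150108227. Il18 (ENSMUSG00000039217) is on chromosome 9 at 50554827 to 50581840, Nlrp3 (ENSMUSG00000032691) on chromosome 11 at 59541568 to 59566956 and Osm (ENSMUSG00000058755) on the same chromosome at 4236420 to 4241026. The 150 bases upstream of the start are shown for 4 members. In GFPlo, Il1b and Tnf were higher in macrophages and neutrophils than in fibroblasts, mesothelial cells or endothelial cells. Fibroblasts held the most GFPlo UMIs of Il6 (79.3%) and Ptgs2 (63.2%), and 67618682 of the 104571137 GFPlo UMIs of all genes. Ptgs2 joins Il6 by this share only. Relative to all UMIs, Ptgs2 was at 47.4 per 1000000 in GFPlo fibroblasts and 48.6 in the whole GFPlo library. By class its level was highest in GFPlo neutrophils. The sequences are RefSeq's on GRCm38.p6, 5′ to 3′ on the gene's strand, each ending 1 base before the start: chr2:129371140-129371289 on the minus strand for Il1b, chr17:35202008-35202157 on the minus strand for Tnf, chr5:30012964-30013113 on the plus strand for Il6 and chr1:150099881-150100030 on the plus strand for Ptgs2. Capitals mark matches to the kappa-B consensus of NF-kappa-B in Il6 and to the PU.1 motif GAGGAAG, on the opposite strand, in Tnf.
Il1b: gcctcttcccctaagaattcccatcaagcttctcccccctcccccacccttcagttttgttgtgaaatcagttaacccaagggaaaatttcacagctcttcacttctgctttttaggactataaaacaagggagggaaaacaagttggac
Tnf: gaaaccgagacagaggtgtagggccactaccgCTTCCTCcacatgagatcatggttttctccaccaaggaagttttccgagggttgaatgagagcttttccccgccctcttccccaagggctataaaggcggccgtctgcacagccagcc
Il6: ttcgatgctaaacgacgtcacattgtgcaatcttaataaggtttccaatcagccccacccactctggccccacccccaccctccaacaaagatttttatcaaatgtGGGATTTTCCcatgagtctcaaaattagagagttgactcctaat
Ptgs2: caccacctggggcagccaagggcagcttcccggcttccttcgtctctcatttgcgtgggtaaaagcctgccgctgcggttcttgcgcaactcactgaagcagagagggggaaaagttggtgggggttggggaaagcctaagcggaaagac
The kappa-B consensus, the AP-1 motif TGANTCA and the PU.1 motif were searched on both strands in the 250 bases before each start, for the 8 members that had an entry in the promoter table. No match overlapped a match to another of these motifs. The kappa-B consensus was present in 7.25% of 32851 promoters and, of the members, in Il6 from 44 bases before the start and at 1 of 2 Nlrp3 starts. The AP-1 motif was present in 6.75% of promoters and in Il1a, in Il6 from 249 bases before the start and at 1 of 3 Il1rn starts. The PU.1 motif was present in 10.6% of promoters and in Il1a, Tnf and Nlrp3. Il1b, Il18 and Ptgs2 had no match to these letters in this window, and a match describes letters and not binding.

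The GFPhi library held 91343549 UMIs in 10430 barcodes and the GFPlo library 104855204 UMIs in 12344 barcodes, of which 10125 and 11959 cells passed the filter (300 or more genes, 500 or more UMIs, no more than 20% of UMIs from mitochondrial genes). Their median depths were 6899 and 7712 UMIs per cell, and 92 kept barcodes occurred in both libraries. Cells were assigned to 9 classes by detected marker genes, and the libraries differed in what they contained: GFPhi had 8363 macrophages, 1 neutrophil, 296 fibroblasts, 325 mesothelial cells and 225 endothelial cells, and GFPlo had 85 macrophages, 48 neutrophils, 7150 fibroblasts, 849 mesothelial cells and 920 endothelial cells. The gate left 830 GFPhi and 2236 GFPlo cells without a class. The mGFP transcript was at 31.3 CPM (UMIs of the gene per 1000000 UMIs of the group) in GFPhi and 26.9 CPM in GFPlo macrophages, 24.7 and 23.1 CPM in fibroblasts, 31.1 and 15.2 CPM in mesothelial cells and 124 and 43.0 CPM in endothelial cells of those libraries. Macrophage transcripts were found in other classes of GFPhi. The complement genes C1qa, C1qb and C1qc summed to 148 CPM in fibroblasts, 144 CPM in mesothelial cells and 205 CPM in endothelial cells of GFPhi. The same classes of GFPlo had 1.14, 0.406 and 1.81 CPM. Macrophages were at 12938 CPM in GFPhi and 5404 CPM in GFPlo. Whether these UMIs came from free RNA or from doublets with macrophages was not tested.

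In the summed libraries, 6 of the 9 members were at least 2-fold higher in GFPhi and 1 was at least 2-fold lower, where 12% of the 18456 genes measured were at least 2-fold higher and 23.7% at least 2-fold lower. Il1a was at 24.9 CPM in GFPhi and 0.335 CPM in GFPlo, a ratio of 74.4 (interval 53.3 to 107). Tnf was at 376 CPM in GFPhi and 5.61 CPM in GFPlo, a ratio of 67.1 (interval 61.8 to 72.9). Il1rn was at 29.1 CPM in GFPhi and 0.536 CPM in GFPlo, a ratio of 54.3 (interval 41.7 to 72.1). These 3 stood furthest apart, and macrophages held at least 97.5% of the UMIs of each in GFPhi. Nlrp3 was at 53.2 CPM in GFPhi and 1.88 CPM in GFPlo, a ratio of 28.2 (interval 24.5 to 32.7). Osm was at 25.8 CPM in GFPhi and 0.966 CPM in GFPlo, a ratio of 26.7 (interval 21.9 to 32.9). Il1b was at 459 CPM in GFPhi and 24.6 CPM in GFPlo, a ratio of 18.7 (interval 17.9 to 19.4). Il1b had the smallest ratio of these 6 although it had the most UMIs, and 33.4% of its GFPlo UMIs lay in 48 neutrophils.

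The other 3 members did not follow the macrophage-rich library. Il18 was at 41.2 CPM in GFPhi and 22.5 CPM in GFPlo, a ratio of 1.83 (interval 1.74 to 1.93). Il6 was at 16.3 CPM in GFPhi and 61.9 CPM in GFPlo, 3.81-fold lower in GFPhi. Ptgs2 was at 31.2 CPM in GFPhi and 48.6 CPM in GFPlo, 1.56-fold lower in GFPhi. Over all measured genes the median ratio of GFPhi over GFPlo was 0.796. A scaling to the median of gene ratios, taken over the 15718 genes with enough UMIs in both libraries, moves every log2 ratio up by 0.30. Without the gated macrophages the log2 ratio was 1.21 for Il1b, 3.10 for Tnf, 1.64 for Il18 and -0.60 for Il6, against 4.22, 6.07, 0.87 and -1.93 with all cells. In a summed library, fewer cells of a class and less RNA per cell cannot be told apart, and the classes are therefore described one by one.

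**Figure D1:**
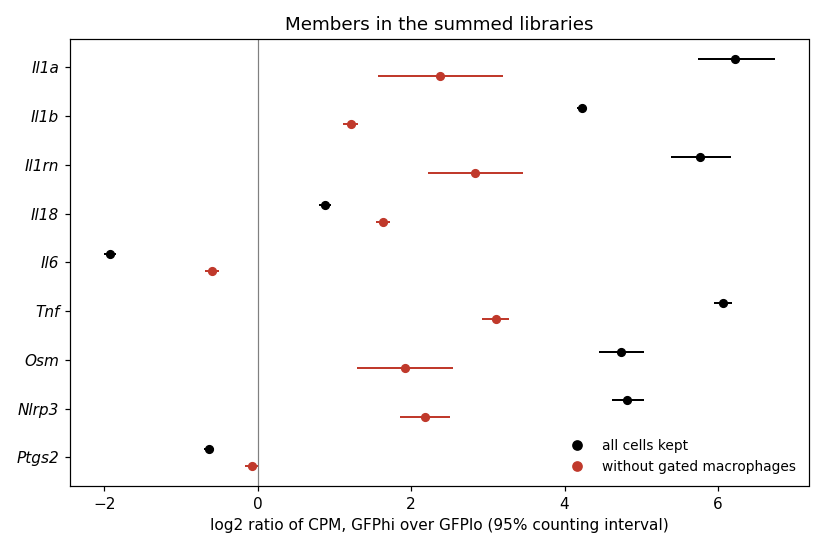
The log2 ratio of CPM in GFPhi over GFPlo (horizontal axis) is plotted for the 9 members with exact 95% counting intervals, with all cells kept (black) and without gated macrophages (red). Il1a, Tnf and Il1rn stood furthest to the right with all cells, at 6.22, 6.07 and 5.76, and Il6 and Ptgs2 were left of 0.

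Il1b, the secreted form of IL-1, was highest in neutrophils. The 48 GFPlo neutrophils, which carried the calprotectin genes S100a8 and S100a9 at 159723 CPM and no C1q UMI, had 861 Il1b UMIs or 9937 CPM, against 450 UMIs or 1010 CPM in the 85 GFPlo macrophages, a ratio of neutrophils over macrophages of 9.84 (interval 8.77 to 11.1). An Il1b UMI was present in 45 of the 48 neutrophils, so the signal was spread over nearly every cell. The 36 GFPlo dendritic cells had 1039 CPM, close to the macrophages of the same library, but 14 of the 36 cells carried all of it. These 48 neutrophils held 33.4% of all Il1b UMIs of GFPlo, and a further 30.3% lay in GFPlo cells without a class, where S100a8 and S100a9 stood at 497 CPM. In GFPhi, macrophages were at 632 CPM and held 97.0% of the Il1b UMIs, and the single gated neutrophil had 13 UMIs.

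Fibroblasts, mesothelial cells and endothelial cells had little Il1b. It was at 6.55 CPM in GFPhi and 2.26 CPM in GFPlo fibroblasts, 7.71 CPM in GFPhi and 7.79 CPM in GFPlo mesothelial cells, and 11.4 CPM in GFPhi and 4.07 CPM in GFPlo endothelial cells. In GFPhi the UMIs were spread thinly, with at most 2 in any of these cells. Per 1000 C1q UMIs there were 44.4 Il1b UMIs in GFPhi fibroblasts (interval 30.9 to 62.0) and 53.4 in mesothelial cells (interval 41.1 to 68.3). GFPhi endothelial cells had 55.7 (interval 34.1 to 86.4) and GFPhi macrophages 48.8. The 3 intervals include the value of the macrophages. In GFPlo there were 153 Il1b and 77 C1q UMIs in fibroblasts, 96 and 5 in mesothelial cells and 18 and 8 in endothelial cells. In GFPhi cells with no C1q UMI, Il1b was at 0 CPM in 27 fibroblasts, 11.9 CPM in 19 mesothelial cells (3 UMIs) and 14.0 CPM in 59 endothelial cells (5 UMIs), the last at 10.2 times the GFPlo endothelial cells with no C1q UMI (interval 2.47 to 40.2). The part of free RNA or of doublets with macrophages in these levels was not tested. In GFPlo the UMIs sat in few cells, with all 153 of the fibroblasts in 50 of 7150 cells and up to 26 in 1 cell, and 92.7% of those of mesothelial cells in the top 1% of the cells. Thinned to 1000 UMIs per cell, 29.4% of GFPhi macrophages, 41.2% of GFPlo macrophages and 90.5% of GFPlo neutrophils had an Il1b UMI, against 0.913% of GFPhi endothelial cells. Unthinned, the shares were 49.0%, 54.1%, 93.8% and 9.33% at median depths of 6726, 4831, 1327 and 6206 UMIs.

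Il1a, the membrane and intracellular form of IL-1, was a macrophage and neutrophil transcript at a lower level. It was at 34.8 CPM in GFPhi macrophages (2233 UMIs) and 24.7 CPM in GFPlo macrophages (11 UMIs), and 6 UMIs in 2 GFPlo neutrophils gave 69.2 CPM (interval 25.4 to 151). The intervals of the GFPlo classes overlap. In GFPhi macrophages 28.2% of the Il1a UMIs lay in the top 1% of the cells, and a single cell held 50. The top 1% of the cells held 10.8% of the Il1b UMIs. These shares were not matched for level or detection. Fibroblasts and mesothelial cells had 1 or 2 Il1a UMIs in each library, and endothelial cells had 0.

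Il1rn, whose product blocks the IL-1 receptor, was at 40.2 CPM in GFPhi macrophages and 44.9 CPM in GFPlo macrophages, which did not differ beyond counting error (ratio 0.896, interval 0.579 to 1.47). GFPlo neutrophils were at 173 CPM from 15 UMIs, 3.86 times the GFPlo macrophages (interval 1.84 to 7.93). Set against Il1b in the same cells, there were 6.36 Il1rn UMIs per 100 Il1b UMIs in GFPhi macrophages (interval 6.11 to 6.62), 4.44 in GFPlo macrophages (interval 2.69 to 6.95) and 1.74 in GFPlo neutrophils (interval 0.971 to 2.89). Of these 3 groups, the neutrophils had the highest CPM of the antagonist and the lowest ratio of it to the agonist. The interval of that ratio overlaps the GFPlo macrophages. Median depths were 1327 UMIs in these neutrophils, 6726 in GFPhi macrophages and 4831 in GFPlo macrophages. In number, 15 Il1rn UMIs lay in 48 neutrophils, 2579 in 8363 GFPhi macrophages and 20 in 85 GFPlo macrophages. A higher CPM thus need not mean more UMIs per cell, and this holds for the other members in neutrophils too. In fibroblasts, mesothelial and endothelial cells Il1rn was at most at 0.546 CPM in either library.

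Il18 had another order: mesothelial cells came first. It was at 138 CPM in GFPhi mesothelial cells (interval 130 to 146) and 104 CPM in GFPlo mesothelial cells (interval 98.4 to 110), and 84.9% of the GFPhi and 67.7% of the GFPlo mesothelial cells had an Il18 UMI. Thinned to 1000 UMIs the shares were 11.2% of GFPhi and 9.56% of GFPlo mesothelial cells, against 0.685% of GFPhi and 0.329% of GFPlo fibroblasts. Mesothelial cells held 54.6% of the Il18 UMIs of GFPlo, from 849 of its 11959 cells, and 32.0% of those of GFPhi. GFPlo dendritic cells were at 101 CPM from 21 UMIs (interval 62.5 to 154), not apart from mesothelial cells of that library. Macrophages were at 29.3 CPM in GFPhi and 24.7 CPM in GFPlo, and in GFPhi mesothelial cells were at 4.72 times the level of macrophages (interval 4.39 to 5.08). Fibroblasts were at 4.18 CPM in GFPhi and 4.47 CPM in GFPlo, and endothelial cells at 0.545 and 1.58 CPM. In GFPhi mesothelial cells there were 957 Il18 UMIs per 1000 C1q UMIs, against 2.26 in GFPhi macrophages. In mesothelial cells with no C1q UMI, 19 of GFPhi and 844 of GFPlo, Il18 was at 99.4 CPM in GFPhi and 104 CPM in GFPlo (ratio 0.953, interval 0.614 to 1.41).

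**Figure D2:**
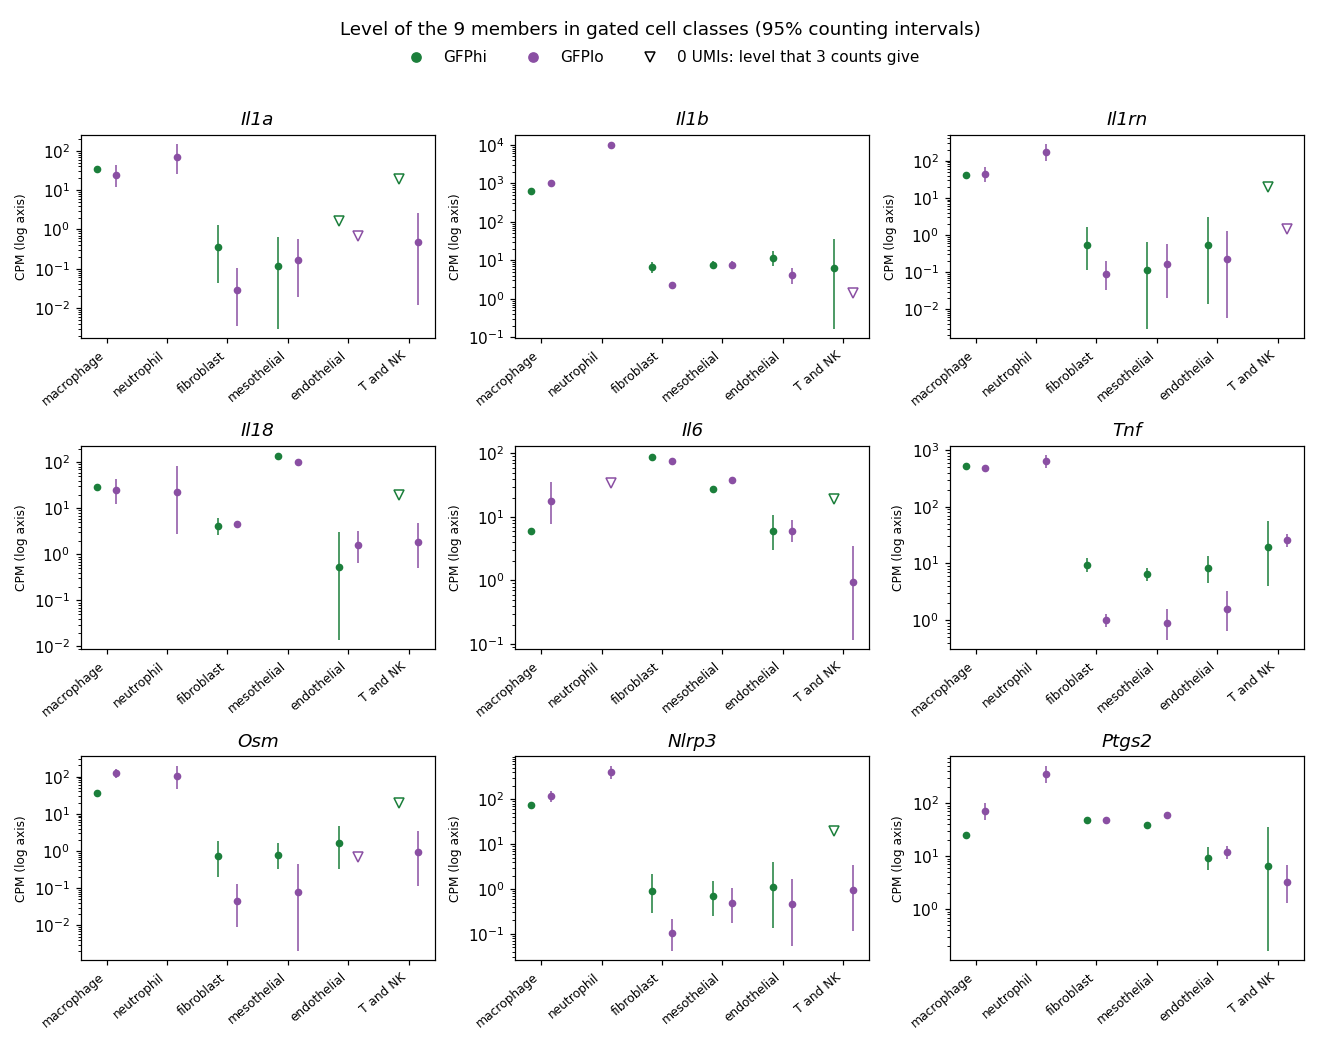
Each panel plots 1 member as CPM on a log axis in 6 gated classes, GFPhi in green left of GFPlo in purple, with exact 95% counting intervals; open triangles mark 0 UMIs at the level that 3 counts give, and classes of under 10 cells are left out. Of the classes shown, Il1b, Tnf, Il1a, Il1rn, Osm and Nlrp3 were high in macrophages and neutrophils and low in the others. Il18 was highest in mesothelial cells, and Il6 in fibroblasts. Dendritic cells are not shown.

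Nlrp3, the inflammasome sensor, was like Il1b highest in neutrophils by CPM. It was at 404 CPM in GFPlo neutrophils, 72.8 CPM in GFPhi macrophages and 119 CPM in GFPlo macrophages. The neutrophils were at 3.40 times the GFPlo macrophages (interval 2.15 to 5.30). In number, 35 Nlrp3 UMIs lay in 48 neutrophils and 53 in 85 GFPlo macrophages, at median depths of 1327 and 4831 UMIs. Mesothelial cells, the class with the most Il18, had 0.690 CPM of Nlrp3 in GFPhi and 0.487 CPM in GFPlo, 6 UMIs in each library. Their 2 caspases of the list differed: Casp1, which cleaves both precursors, was at 5.06 CPM in GFPhi and 6.41 CPM in GFPlo mesothelial cells, against 50.6 CPM in GFPhi and 35.9 CPM in GFPlo macrophages. Casp4, the caspase that senses lipopolysaccharide inside the cell, was at 51.3 CPM in GFPhi and 39.6 CPM in GFPlo mesothelial cells, against 36.2 and 22.4 CPM in macrophages of those libraries. Gsdmd, the pore through which IL-1β and IL-18 leave, was at 37.5 CPM in GFPhi and 48.7 CPM in GFPlo mesothelial cells, against 29.4 CPM in GFPhi and 33.7 CPM in GFPlo macrophages. Casp4 was chosen after its values were seen. Of the 11 inflammasome and pyroptosis genes, 6 were at least 2-fold higher and 1 at least 2-fold lower in the summed GFPhi library, with a median ratio of 2.44, beside 12% and 23.7% of all genes. Nlrp1b, another sensor, had the largest ratio at 21.0, and Panx1, a membrane channel, the smallest at 0.345. Within macrophages none was at least 2-fold higher in GFPhi and 1 was at least 2-fold lower, where 5.98% and 24% of all genes measured there were.

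Of the members, Tnf had the smallest share of its UMIs in the top 1% of the GFPhi macrophages, at 8.16% without matching for level. It was at 521 CPM in GFPhi macrophages and 478 CPM in GFPlo macrophages (ratio 1.09, interval 0.953 to 1.25), and 35.0% of the thinned cells had a Tnf UMI in each of the libraries. Unthinned, the shares were 75.5% of GFPhi and 61.2% of GFPlo macrophages. GFPlo neutrophils were at 635 CPM, not apart from GFPlo macrophages (ratio 1.33, interval 0.969 to 1.79), although 16 of 48 neutrophils had a Tnf UMI where 45 had one of Il1b. The neutrophils had 6.39 Tnf UMIs per 100 Il1b UMIs (interval 4.77 to 8.39), against 82.5 in GFPhi macrophages and 47.3 in GFPlo macrophages. T and NK cells, which also make TNF, were at 19.4 CPM in GFPhi from 3 UMIs and at 25.7 CPM in GFPlo from 54 UMIs. Tnf was at 9.46 CPM in GFPhi and 0.991 CPM in GFPlo fibroblasts, and at 6.44 CPM in GFPhi and 0.892 CPM in GFPlo mesothelial cells. The GFPhi level was 44.6 Tnf UMIs per 1000 C1q UMIs in mesothelial cells (interval 33.5 to 58.3) and 39.8 in endothelial cells (interval 22.0 to 66.5), against 40.3 in GFPhi macrophages, and it was somewhat above that in fibroblasts, at 64.1 (interval 47.5 to 84.9), where 1 cell held 11 of the 52 UMIs.

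Il6 was a fibroblast transcript. It was at 87.2 CPM in GFPhi fibroblasts (interval 79.5 to 95.3) and 75.9 CPM in GFPlo fibroblasts (interval 73.8 to 78.0). The ratio was 1.15 (interval 1.04 to 1.26). Fibroblasts held 79.3% of the Il6 UMIs of GFPlo, where the whole library was at 61.9 CPM. Mesothelial cells followed at 27.3 CPM in GFPhi and 38.8 CPM in GFPlo, a ratio of 0.702 (interval 0.598 to 0.822). That direction turned in the 19 GFPhi and 844 GFPlo mesothelial cells with no C1q UMI, to a ratio of 1.94 (interval 1.16 to 3.06), and under a stricter gate the ratio was 1.12. Endothelial cells were at 5.99 CPM in GFPhi and 6.11 CPM in GFPlo. Macrophages were at 5.94 CPM in GFPhi and 18.0 CPM in GFPlo, the second from 8 UMIs, and no UMI was found in 48 GFPlo neutrophils, which allows a level of up to 34.6 CPM. In GFPhi, fibroblasts were thus at 14.7 times the level of macrophages (interval 12.8 to 16.8). GFPhi fibroblasts had 591 Il6 UMIs per 1000 C1q UMIs, against 0.459 in GFPhi macrophages. The 381 Il6 UMIs of GFPhi macrophages were uneven, with 67.7% in the top 1% of the cells. Among fibroblasts 50.3% of the GFPhi cells and 29.2% of the GFPlo cells had an Il6 UMI, at median depths of 16050 and 8408.5 UMIs, and after thinning 8.56% of GFPhi and 6.61% of GFPlo fibroblasts had one.

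Osm, whose product signals to stromal cells through gp130 and the oncostatin M receptor, was highest in macrophages and neutrophils. It was at 35.9 CPM in GFPhi macrophages and 123 CPM in GFPlo macrophages, and at 104 CPM in GFPlo neutrophils (interval 47.5 to 197), which overlaps the GFPlo macrophages. Fibroblasts had 4 Osm UMIs in GFPhi and 3 in GFPlo, and mesothelial cells 7 in GFPhi and 1 in GFPlo. Of the 6 other genes of IL-6 family ligands, Ctf1, which encodes cardiotrophin-1, was at 35.3 CPM in GFPhi and 34.5 CPM in GFPlo mesothelial cells. Il11 was at 3.82 CPM in GFPhi and 5.26 CPM in GFPlo fibroblasts, and Lif at 6.37 CPM in GFPhi and 4.82 CPM in GFPlo fibroblasts. In the summed libraries 1 of these 6 was at least 2-fold higher in GFPhi and 1 at least 2-fold lower, beside 12% and 23.7% of all genes, with a median ratio of 0.552.

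Ptgs2, which encodes COX-2, was found in fibroblasts, mesothelial cells, macrophages and neutrophils. It was at 47.7 CPM in GFPhi and 47.4 CPM in GFPlo fibroblasts (ratio 1.00, interval 0.883 to 1.14). Mesothelial cells were at 38.2 CPM in GFPhi and 59.2 CPM in GFPlo, a ratio of 0.645 (interval 0.565 to 0.735), which turned to 1.21 (interval 0.712 to 1.92) in the mesothelial cells with no C1q UMI. Macrophages were at 25.0 CPM in GFPhi and 71.8 CPM in GFPlo, endothelial cells at 9.26 CPM in GFPhi and 11.8 CPM in GFPlo, and the highest level was that of GFPlo neutrophils, at 358 CPM from 31 UMIs. Fibroblasts held 63.2% of the Ptgs2 UMIs of GFPlo by number of cells, and 67618682 of the 104571137 GFPlo UMIs of all genes. The enzymes that act after COX-2 divided by class: Hpgds, the prostaglandin D synthase of blood cells, was at 142 CPM in GFPhi and 108 CPM in GFPlo macrophages, and Tbxas1, thromboxane synthase, at 96.3 CPM in GFPhi and 96.5 CPM in GFPlo macrophages, where Tbxas1 was at 2.07 CPM in GFPhi and 0.324 CPM in GFPlo mesothelial cells. Ptgis, prostacyclin synthase, was at 716 CPM in GFPhi and 783 CPM in GFPlo mesothelial cells and at 297 CPM in GFPhi and 394 CPM in GFPlo fibroblasts, against 4.68 CPM in GFPhi and 15.7 CPM in GFPlo macrophages. Hpgd, which inactivates prostaglandins, was at 561 CPM in GFPhi and 293 CPM in GFPlo mesothelial cells. Of the 13 prostaglandin genes, 5 were at least 2-fold higher and 3 at least 2-fold lower in the summed GFPhi library, with a median ratio of 0.908, beside 12% and 23.7% of all genes.

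Within macrophages no member was at least 2-fold higher in GFPhi and 3 of 9 were at least 2-fold lower, where 5.98% of 14022 genes were at least 2-fold higher and 24% at least 2-fold lower. Osm had a ratio of GFPhi over GFPlo of 0.291 (interval 0.223 to 0.387), Ptgs2 of 0.348 (interval 0.245 to 0.510) and Il6 of 0.331 (interval 0.166 to 0.772). Il1b and Nlrp3 were also lower in GFPhi macrophages, with ratios of 0.626 (interval 0.570 to 0.688) and 0.612 (interval 0.467 to 0.819). Il1a, Il1rn, Il18 and Tnf had intervals that include 1. The median ratio of all genes in this comparison was 0.778, so the ratios of Il1b and Nlrp3 lie less far below the other genes than below 1. The macrophages also differed in C1q, at 12938 CPM in GFPhi and 5404 CPM in GFPlo, and in S100a8 and S100a9, at 9.62 CPM in GFPhi and 20.2 CPM in GFPlo, and the GFPlo side is 85 cells. The gates described below also held different shares of them: 1028 GFPhi and no GFPlo macrophage fell in the Mmp12/Gpnmb gate, 1104 and 1 in the Gdf15/Cxcr4 gate, 1185 and 26 in the MHC class II gate and 67 and 12 in the Ly6c2/Plac8 gate. These 12 GFPlo cells held 27 of the 55 Osm UMIs of GFPlo macrophages. Without the cells that carried an S100a8 or S100a9 UMI, 7917 GFPhi and 78 GFPlo macrophages had ratios of 0.635 for Il1b, 0.298 for Osm and 0.325 for Ptgs2. The part of the C1q difference and of the mix of gates was not tested.

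Within fibroblasts 5 members were measured and 2 of them were at least 2-fold higher in GFPhi, Il1b and Tnf, where 3.68% of genes were at least 2-fold higher and 4.67% at least 2-fold lower. Within mesothelial cells 5 were measured and 1 was at least 2-fold higher, Tnf, where 2.13% of genes were at least 2-fold higher and 3.92% at least 2-fold lower. The GFPhi counts of Il1b in fibroblasts and of Tnf in mesothelial cells stand near the C1q ratio of macrophages, and that of Tnf in fibroblasts above it. In fibroblasts with no C1q UMI the Tnf ratio was 8.05 (interval 1.62 to 24.6, from 3 GFPhi UMIs). A C1q UMI was common in GFPhi: 90.9% of GFPhi fibroblasts and 94.2% of GFPhi mesothelial cells carried one, against 1.05% and 0.589% in GFPlo.

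Macrophages of GFPhi were divided by gates named for their marker genes, none of which is a member: Cd163/Folr2 (860 cells), Mmp12/Gpnmb (1028), MHC class II (1185), Gdf15/Cxcr4 (1104), cycling (489) and Ly6c2/Plac8 (67), with 3630 cells in no gate. The gates are ranges of a score, and 938 of the 8448 gated macrophages of both libraries (11.1%) lay between 1.6 and 2.4 times the mean marker share around the limit of 2. The same gates held 1 to 26 GFPlo macrophages each and none in Mmp12/Gpnmb. Apart from the Osm count above, the members are not described by gate there. Il1b differed most between gates: it was at 1513 CPM in the MHC class II gate and at 509 CPM in the other macrophages, a ratio of 2.97 (interval 2.91 to 3.03), and that gate held 11831 of 40524 Il1b UMIs. The gate also had Nlrp3 at 116 CPM, against 66.9 CPM in the other macrophages, and Tnf at 631 CPM, against 506 CPM. It had less Il1rn and Osm than the others, at 28.3 and 27.1 CPM. Here 1 of 9 members was at least 2-fold higher and none at least 2-fold lower, where 3.41% and 7.7% of 14006 genes were. The list of 12 genes induced by cell dissociation summed to 12662 CPM in the MHC class II gate, the highest of the gates, and to 11995 CPM in the Gdf15/Cxcr4 gate, where Il1b was at 584 CPM. The part of dissociation in the Il1b level was not tested.

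Against the other macrophages, the Mmp12/Gpnmb gate had less Il1b and more Il1rn, the reverse of the MHC class II gate. Il1b was at 277 CPM there and at 715 CPM in the other macrophages (ratio 0.388, interval 0.374 to 0.401), Nlrp3 at 33.3 CPM and 82.2 CPM (ratio 0.405, interval 0.365 to 0.448), and Il1rn at 75.7 CPM and 31.8 CPM (ratio 2.38, interval 2.20 to 2.58). Tnf did not follow Il1b, at 534 CPM in the gate and 518 CPM in the others. In this gate 1 of 9 members was at least 2-fold higher and 3 at least 2-fold lower, among 1.99% and 17.6% of all genes. The dissociation list summed to 6777 CPM in the Mmp12/Gpnmb gate, the lowest of the gates. It was at 7062 CPM in the cycling gate, 8474 CPM in the Ly6c2/Plac8 gate and 8714 CPM in the Cd163/Folr2 gate. Its part in these levels was not tested. The antagonist stood at 27.3 Il1rn UMIs per 100 Il1b UMIs in the Mmp12/Gpnmb gate (interval 25.4 to 29.4), at 16.4 in the Ly6c2/Plac8 gate, 11.99 in the cycling gate, 7.43 in the Cd163/Folr2 gate, 6.37 in the Gdf15/Cxcr4 gate and 1.87 in the MHC class II gate (interval 1.63 to 2.13). The cycling, Cd163/Folr2 and Gdf15/Cxcr4 gates differ from the highest and the lowest by more than their counting intervals, and the Cd163/Folr2 and Gdf15/Cxcr4 gates do not differ from each other.

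The Cd163/Folr2 gate, the one with the most C1q at 17863 CPM, was low in the main cytokines. Il1b was at 250 CPM in the gate and at 671 CPM in the other macrophages (ratio 0.372, interval 0.353 to 0.392). Tnf was at 194 CPM in the gate and at 555 CPM in the others (ratio 0.349, interval 0.329 to 0.370). Il1rn was at 18.6 CPM in the gate and at 42.4 CPM in the others (ratio 0.437, interval 0.358 to 0.529). Tnf was lower in this gate than in each of the others, of which cycling macrophages were next at 471 CPM. Il18 and Il6 were above the others there, at ratios of 1.41 (interval 1.22 to 1.61) and 1.89 (interval 1.42 to 2.49), the second from 62 UMIs at 10.4 CPM. The median ratio of all genes measured in this comparison was 1.21. None of 9 members was at least 2-fold higher in this gate and 3 were at least 2-fold lower, among 13.7% and 6.24% of all genes.

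Tnf was highest in the Gdf15/Cxcr4 gate, at 658 CPM against 499 CPM in the other macrophages (ratio 1.32, interval 1.28 to 1.35), followed by the MHC class II gate at 631 CPM. Il6 was lowest in the Gdf15/Cxcr4 gate at 2.29 CPM, not apart from the Mmp12/Gpnmb gate at 2.94 CPM. In that gate none of 9 members was at least 2-fold higher and 1 was at least 2-fold lower, among 1.07% and 8.84% of genes. The 67 cells of the Ly6c2/Plac8 gate had Il1rn at 98.0 CPM (ratio 2.48, interval 1.93 to 3.14), Osm at 61.6 CPM (ratio 1.73, interval 1.25 to 2.33) and Ptgs2 at 42.0 CPM (ratio 1.69, interval 1.14 to 2.43). With a prior count of 0.5, 2 of 9 members were at least 2-fold higher there, Il1rn and, from 8 UMIs, Il6, whose ratio without the prior count was 1.90 (interval 0.816 to 3.79), and none was at least 2-fold lower, among 12.3% and 6.45% of genes. In cycling macrophages Il1b was at 390 CPM (ratio 0.592, interval 0.568 to 0.616) and Osm at 47.1 CPM (ratio 1.36, interval 1.20 to 1.53), and none of 9 members passed 2-fold, among 8.16% and 6.45% of genes. Il1a varied least, between 26.7 and 38.5 CPM over all 6 gates and the cells in no gate.

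**Figure D3:**
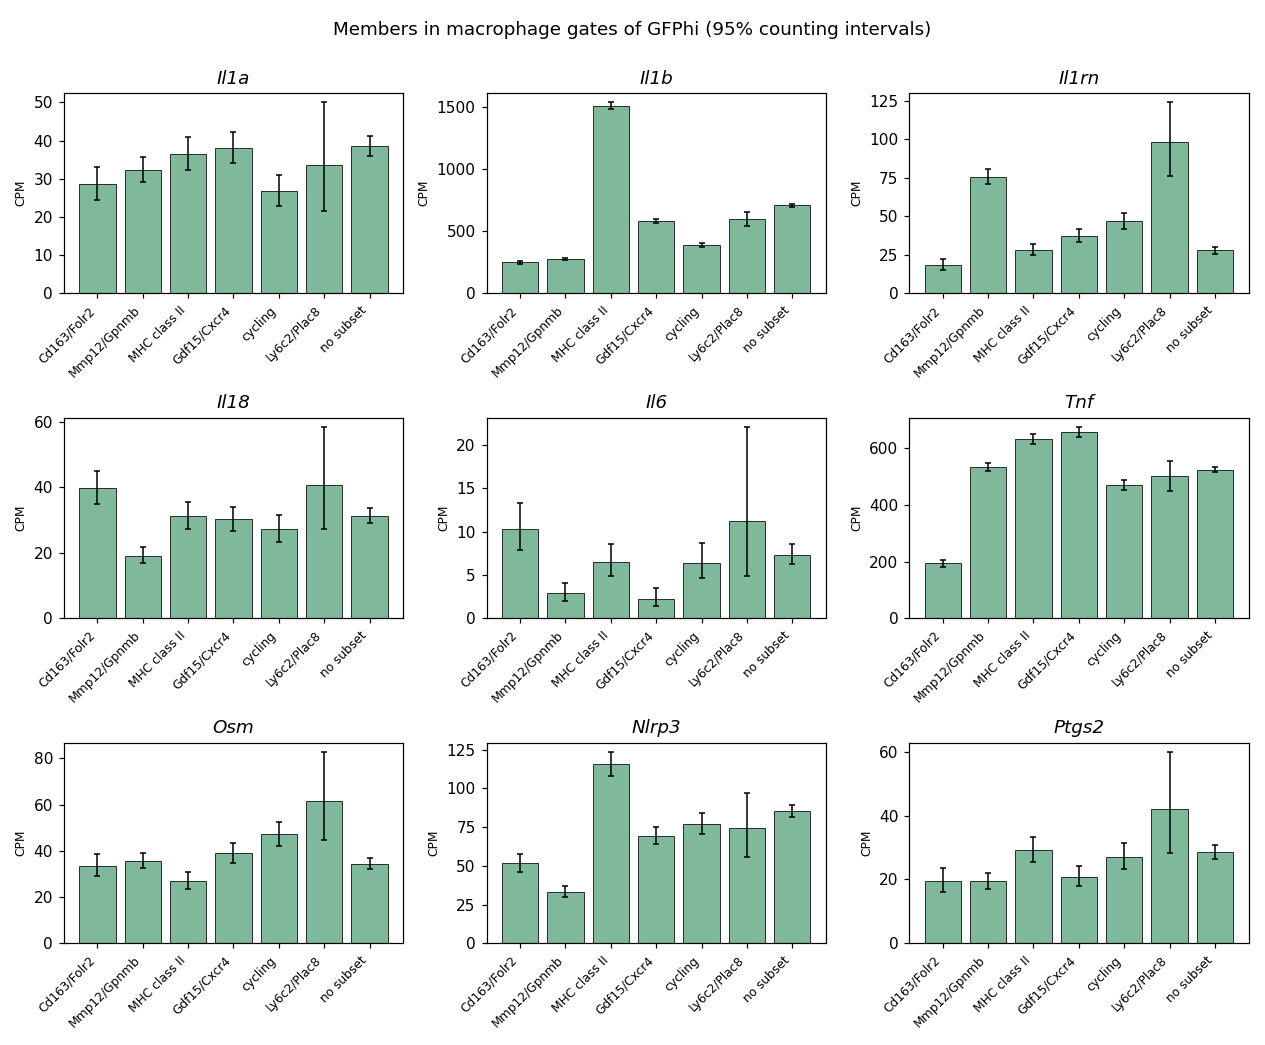
Bars give the CPM of each member in the macrophage gates of GFPhi, named by their marker genes, with exact 95% counting intervals. Il1b stood at 1513 CPM in the MHC class II gate and at 277 CPM in the Mmp12/Gpnmb gate, Il1rn at 28.3 and 75.7 CPM in the same gates, and Tnf was lowest in the Cd163/Folr2 gate at 194 CPM.

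Fibroblasts and mesothelial cells of GFPlo were divided in the same way, by gates added after the data had been seen. Il6 and Ptgs2 ran in opposite directions over a pair of fibroblast gates. Il6 was at 26.9 CPM in the 936 cells of the Pi16/Scara5 gate and at 81.8 CPM in the other fibroblasts (ratio 0.329, interval 0.284 to 0.380), where Ptgs2 was at 66.1 CPM and 45.2 CPM (ratio 1.46, interval 1.32 to 1.61). In the 983 cells of the Comp/Thbs4 gate Il6 was at 93.2 CPM and Ptgs2 at 25.0 CPM, with ratios to the other fibroblasts of 1.27 (interval 1.18 to 1.37) and 0.490 (interval 0.427 to 0.561). Among mesothelial cells, Il18 was at 105 CPM in the Krt14/Slurp1 gate, 81.1 CPM in the Pnoc/Enpp2/Wnt4 gate and 60.7 CPM in the cycling gate. The 80 cycling cells were low in all 3 genes, with ratios to the other mesothelial cells of 0.551 for Il18 (interval 0.441 to 0.681), 0.388 for Il6 (interval 0.249 to 0.581) and 0.441 for Ptgs2 (interval 0.317 to 0.601). The dissociation list was at 5936 CPM in them and at 8548 to 10072 CPM in the other mesothelial gates, and its part in these ratios was not tested.

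**Figure D4:**
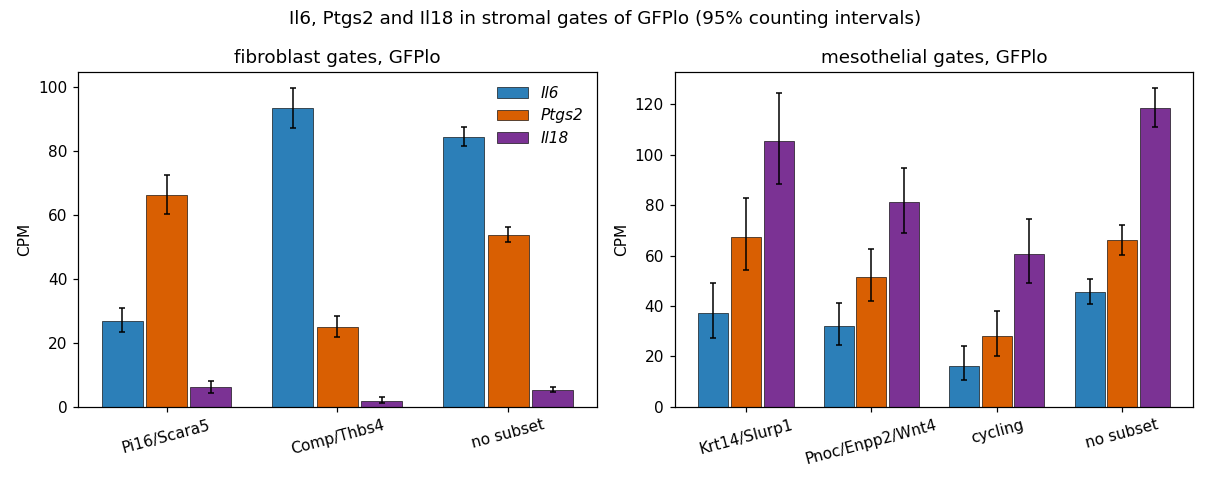
Bars give the CPM of Il6, Ptgs2 and Il18 in fibroblast gates (left) and mesothelial gates (right) of GFPlo, with exact 95% counting intervals. Of the fibroblasts shown, Il6 was lowest where Ptgs2 was highest, in the Pi16/Scara5 gate, and Il18 was at 60.7 CPM or more in each mesothelial gate and at 6.07 CPM or less in each fibroblast gate shown.

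The receptor of IL-1 lay largely on cells with little of the ligand. Il1r1, the signalling IL-1 receptor, was at 92.2 CPM in GFPhi and 103 CPM in GFPlo fibroblasts, 67.1 CPM in GFPhi and 97.8 CPM in GFPlo mesothelial cells and 52.3 CPM in GFPhi and 47.5 CPM in GFPlo endothelial cells, against 2.24 CPM in macrophages of each library. Il1r2, the decoy that binds IL-1 without signalling, was at 1027 CPM in GFPlo neutrophils, the cells with the most Il1b, against 2.26 CPM in GFPhi and 22.4 CPM in GFPlo macrophages. Il1f9, the older symbol of the IL-36γ gene, was at 508 CPM in these neutrophils and at 0.0468 CPM in GFPhi macrophages. Il18r1, the ligand-binding chain of the IL-18 receptor, was at 145 CPM in GFPhi and 97.9 CPM in GFPlo mesothelial cells, which are also the cells with the most Il18, and at 133 CPM in GFPlo T and NK cells. Il18rap, the second chain, was at 0.575 CPM in GFPhi and 0.487 CPM in GFPlo mesothelial cells and at 31.4 CPM in GFPlo T and NK cells. Il18bp, which neutralises IL-18, was at 42.3 CPM in GFPhi and 42.2 CPM in GFPlo mesothelial cells. Il18r1 was chosen after its values were seen. Of 5 other IL-1 family ligands 2 were measured, Il1f9 and Il33, and both were at least 2-fold lower in the summed GFPhi library; Il33, an alarmin of barrier and stromal cells, was at 126 CPM in GFPhi and 166 CPM in GFPlo mesothelial cells. Of the 9 genes of IL-1 family receptors and decoys, 1 was at least 2-fold higher and 2 at least 2-fold lower in the summed GFPhi library, beside 12% and 23.7% of all genes, with a median ratio of 1.07.

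For the other ligands, Tnfrsf1a, the broadly expressed TNF receptor, was at 66.3 CPM in GFPhi and 67.3 CPM in GFPlo macrophages, 90.6 CPM in GFPhi and 87.0 CPM in GFPlo fibroblasts and 136 CPM in GFPhi and 145 CPM in GFPlo mesothelial cells. Tnfrsf1b, the second TNF receptor, was at 93.1 CPM in GFPhi and 71.8 CPM in GFPlo macrophages and at 92.3 CPM in GFPlo neutrophils from 8 UMIs. Of 9 genes of TNF receptors and signalling, 2 were at least 2-fold higher and 1 at least 2-fold lower in the summed GFPhi library. Il6ra, the IL-6 receptor, was at 48.9 CPM in GFPhi and 62.8 CPM in GFPlo macrophages and at 4.55 CPM in GFPhi and 4.88 CPM in GFPlo fibroblasts, the class with the most Il6. Il6st, which encodes gp130, had the reverse order, at 13.5 CPM in GFPhi and 18.0 CPM in GFPlo macrophages, 122 CPM in GFPhi and 125 CPM in GFPlo fibroblasts and 167 CPM in GFPhi and 183 CPM in GFPlo endothelial cells. Osmr, the oncostatin M receptor, was between 34.6 and 51.7 CPM in fibroblasts, mesothelial cells and endothelial cells of both libraries, and at 0.327 CPM in GFPhi macrophages. Of 8 IL-6 family receptor and signalling genes, 2 were at least 2-fold higher and 3 at least 2-fold lower in the summed GFPhi library. The same background of 12% and 23.7% holds for these lists and the next. Of 15 NF-kappa-B response genes, 9 were at least 2-fold higher and none at least 2-fold lower, with a median ratio of 2.83. The chemokine genes Ccl4 and Ccl3 led them at ratios of 137 and 99.1, and Cxcl1, which encodes a neutrophil-attracting chemokine, had the smallest at 0.685. Of the 12 dissociation genes, 2 were at least 2-fold higher and none at least 2-fold lower, with a median ratio of 1.40.

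**Figure D5:**
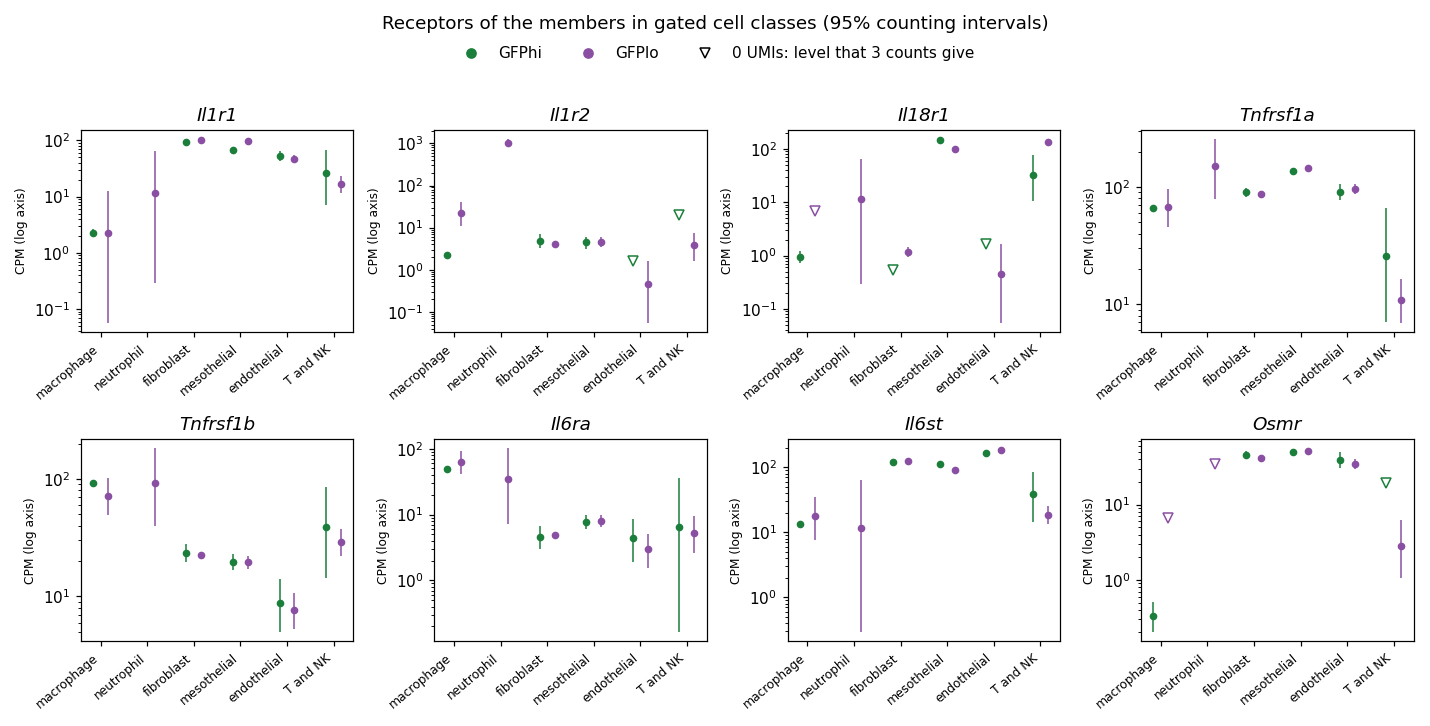
Each panel plots 1 receptor gene as CPM on a log axis in 6 gated classes, GFPhi in green left of GFPlo in purple, with exact 95% counting intervals; open triangles mark 0 UMIs at the level that 3 counts give, and classes of under 10 cells are left out. Il1r1, Il6st and Osmr were high in fibroblasts, mesothelial and endothelial cells, Il6ra in macrophages, Tnfrsf1b in macrophages and neutrophils, and Il1r2 in neutrophils.

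In single GFPhi macrophages, counts of cells with both members of a pair lay above and below the number that independent detection gives. No interval was computed for these counts. After thinning to 1000 UMIs, Il1b and Tnf were both found in 945 of 8038 cells, 1.14 times the number that their separate shares give. Il1b and Nlrp3 were found in 242 cells, 1.42 times that number, and Il1b and Il1a in 114 cells, 1.44 times. Il1b and Il18 were found in 64 cells where 70.9 were expected, 0.903 times. Il1rn and Nlrp3 were found in 11 cells where 15.3 were expected, 0.718 times. In GFPlo fibroblasts Il6 and Ptgs2 were found in 24 cells where 17.8 were expected, 1.35 times. Gaps of so few cells are not read as genes that avoid or join each other. Depth left after thinning and shared gates enter these counts, and they are given as a description. A Pearson r of log2(CPM + 1) was taken over 19 class and gate sums of at least 50 cells, which share libraries and in part cells. Neutrophils and dendritic cells had fewer cells and are not among these sums. GFPhi macrophages enter both whole and by gate. The pattern most like that of Nlrp3 was Tifab, at 0.994, and that most like Osm after Tifab was Nlrp3, at 0.984. Igsf6 was closest to Il1a at 0.995, Clec4a3 to Il1b at 0.972 and Lilr4b to Tnf at 0.983. The closest genes were less close for Il18, with Olr1 at 0.891, for Il6, with Fam229b at 0.892, and for Ptgs2, with Mmp19 at 0.899. Between Il1a and Nlrp3 the coefficient was 0.987, and between Il1a and Il6 it was -0.23.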

How the data were processed

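The deposited matrices hold raw UMI counts per gene and cell barcode, per the file headers, of 1 droplet 3′ library each of GFPhi and GFPlo cells. Per the labels' protocols they were made with a SeekOne kit, whereas the description names 10x Genomics. The build is mm10, per the submitters' processing notes; not given in the sources used here are the aligner, the counter, any use of strand and how cells were called, and no doublet caller was run. Cells with 300 genes and 500 UMIs or more and no more than 20% mitochondrial UMIs were kept. A cell joined the class with the largest fraction of its markers detected (at least 3) if no other class passed 0.5 of that fraction, and a macrophage joined a gate at 2 times the mean marker share and at least 3 UMIs. UMIs were summed per library and class and given as CPM, with exact Poisson intervals, Clopper-Pearson intervals for shares and exact conditional intervals for ratios, all at 95% (Python 3.11.15, NumPy 2.4.6, SciPy 1.17.1, pandas 2.3.3); the calculation was tested on simulated data. Amplified UMIs share their cells, so intervals cover counting error only, and with 1 library per group there is no test over animals. A gene was measured with at least 20 UMIs in the groups compared, and counts of 2-fold genes use a prior count of 0.5. Shares were compared after thinning to 1000 UMIs per cell, which leaves out shallower cells. Named genes are the 9 members, the 3 with the largest and the 3 with the smallest whole-library ratio of each of 8 pathway lists, and the 3 most like each member. A further fibroblast gate and 1 of the most like genes are not reported here. Members, lists and gates were chosen with earlier results of these data known.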

Additional observations from a re-analysis of the deposited data

Results flagged for a closer look

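For a pair of members the ratio of GFPhi over GFPlo ran in opposite directions in different classes, with counting intervals on either side of 1. Il1b was higher in GFPhi in fibroblasts (ratio 2.89) and in endothelial cells (ratio 2.81) and lower in GFPhi in macrophages (ratio 0.626). Il6 was higher in GFPhi in fibroblasts (ratio 1.15) and lower in GFPhi in macrophages (ratio 0.331) and in mesothelial cells (ratio 0.702), but in the 19 GFPhi and 844 GFPlo mesothelial cells with no C1q UMI its ratio was 1.94 (interval 1.16 to 3.06), higher in GFPhi, and under a stricter gate it was 1.12. The difference between classes was not tested, since each class has 1 library per group. The GFPhi Il1b counts of fibroblasts and endothelial cells stood at 44.4 and 55.7 UMIs per 1000 C1q UMIs, beside 48.8 in GFPhi macrophages, and the Il6 ratio of macrophages rests on 8 UMIs in GFPlo.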

How the results depend on the processing

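Over all alternatives, 25 of 63 recomputed whole-library ratios stayed within the counting interval, 38 moved and none changed direction. On the log2 scale, without gated macrophages (chosen after seeing the data) they were 2.37 for Il1a, 1.21 for Il1b, 2.83 for Il1rn, 1.64 for Il18, -0.60 for Il6, 3.10 for Tnf, 1.92 for Osm, 2.18 for Nlrp3 and -0.073 for Ptgs2. Leaving out neutrophils as well (likewise chosen after) gave 2.78, 1.95, 3.61, 1.64, -0.60, 3.33, 2.24, 2.57 and -0.065 in that order. Thinned to 1000 UMIs, where each cell counts alike, they were 5.03 for Il1a, 2.95 for Il1b, 4.12 for Il1rn, 1.00 for Il18, -2.58 for Il6, 5.14 for Tnf, 3.56 for Osm and 3.63 for Nlrp3. Scaling to the median of gene ratios gave 4.52 for Il1b, 1.18 for Il18, -1.63 for Il6, 6.37 for Tnf, 5.04 for Osm, 5.12 for Nlrp3 and -0.34 for Ptgs2. A stricter cell filter gave 4.32 for Il1b and 5.10 for Nlrp3, and leaving out the deepest 2% of cells gave 0.73 for Il18, -2.20 for Il6 and -0.76 for Ptgs2. Of the macrophage gate ratios 265 of 270 recomputed values stayed within their interval. Of the values whose interval excluded a ratio of 1, those that changed sign were within mesothelial cells in cells with no C1q UMI (19 GFPhi cells), at -0.070 for Il18, 0.95 for Il6 and 0.27 for Ptgs2; Il6 within mesothelial cells at 0.16 with a stricter gate; Ptgs2 of mesothelial cells over the rest of GFPhi at -0.0081 with that gate; and Ptgs2 of fibroblasts over the rest of GFPlo at 0.0049 without the deepest cells. In cells with no C1q UMI, ratios whose interval includes 1 also crossed it, to 0.705 for Ptgs2 in fibroblasts, 1.65 for Ptgs2 in endothelial cells and 1.52 for Il1b in mesothelial cells. The cause was not tested. No paired analysis was possible because each group has 1 library and the labels give no replicate numbers. Depth limits the GFPlo macrophages (85 cells) and neutrophils (48 cells) most.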
